A study of Mus musculus with 4 samples.

Results

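The genes described here are 35 components of the Fanconi anaemia and homologous recombination machinery, listed by name and followed across sorted mouse blood stem cells of 4 genotypes. A gene counted as measured when a probe set on the array was annotated with that symbol and no other, and the brightest probe set by mean over the arrays stood for the gene. This gave 32 of the 35 members, out of 22180 genes measured in all, and each of the 32 had 1 such probe set. The remaining 3, Fanca, Rbbp8 and Xrcc2, were not analysed here. Transcripts were read with Affymetrix Mouse Gene 2.0 ST arrays, which probe a transcript along its length, 1 array per genotype. The genotypes were wild type (WT), a knockout of Fancd2 (Fancd2KO), a knockout of Foxo3a (Foxo3aKO) and a knockout of both genes (DKO). All mice were 2 months old, and in all groups the marrow was separated on Ficoll and sorted for cells negative for lineage antigens and CD34 and positive for c-Kit and Sca-1, which the labels call SLAM cells without listing CD150 or CD48. The sources used here do not give the knockout alleles, the number of mice or cells behind each array or the sex of the mice. Because no genotype had a second array, a difference between 2 arrays had no replicate check, and values are given without an error. In pooled RNA of this kind, fewer cells of a type and less RNA per cell cannot be told apart.

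The Fanconi anaemia pathway removes interstrand crosslinks, lesions that join both strands of DNA and block replication forks. A core complex of Fanc proteins, with the conjugating enzyme Ube2t, attaches ubiquitin to the paired proteins Fancd2 and Fanci. The marked pair then recruits nucleases that unhook the crosslink, and the resulting break is repaired by homologous recombination through the Brca proteins and their partners. Inherited loss of the pathway causes bone marrow failure, and blood stem cells are a cell type in which it is known to matter. The second gene deleted in the study, Foxo3, encodes Foxo3a, a forkhead factor tied to stem cell quiescence and stress resistance. The design therefore places a gene of the pathway and a regulator outside it side by side, each present or absent.

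The 4 arrays were close in overall signal, with medians of 5.27 to 5.34 log2 over 41345 probe sets and Pearson correlations between arrays of 0.965 to 0.969. All 14 measured stem cell markers reached the floor of 5.51 log2 in at least 1 array, among them Kit at 10.41 to 10.67 log2, while Ly6a was not analysed here. The list was not level between arrays: its median difference from WT was -0.10 log2 in Fancd2KO, -0.34 in Foxo3aKO (10 of 14 lower) and -0.11 in DKO. The markers with the widest range were Tek (-1.25 in DKO), Cd34 (-1.12 in Foxo3aKO) and Slamf1 (1.11 in Fancd2KO). Cd34 read 9.67 to 10.79 log2, although the cells were gated as CD34-negative. It is also 1 of the 8 progenitor markers given below, so the lists are not separate. Background probe sets with 20 to 25 G or C bases of 25 had medians of 6.59 on the WT array, 6.51 on Fancd2KO, 6.06 on Foxo3aKO and 6.70 on DKO. Of the 32 members, 21 read above that median on WT, 18 on Fancd2KO, 24 on Foxo3aKO and 17 on DKO, and the other members read below it. Background probe sets with a middling count of G or C bases had medians of 2.63, 2.73, 2.58 and 2.74 in the same order. All 32 members read above those medians on every array, the lowest value being 4.90 for Fancb on Fancd2KO. The sources used here do not give the base composition of the members' own probes. That floor, which separates dim genes, is the median of all gene values. Of the 32 members, 31 reached it on at least 1 array and 26 on all 4. Eme1 stayed under it everywhere, and Fancb, Fancc, Fan1 and Rad51c reached it on 1 array only. As a technical gauge, the disagreement between probe sets was taken from 527 genes with 2 probe sets that reached the floor. It holds the error of both probe sets, while errors of RNA or array that they share cancel. It is therefore not the error of a single difference. The 2 probe sets disagreed about the same difference from WT by under 0.91 log2 for Fancd2KO and 0.90 for Foxo3aKO and DKO in 95% of these genes. No member had a second probe set, so this disagreement could not be read for the members themselves.

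**Figure D1:**
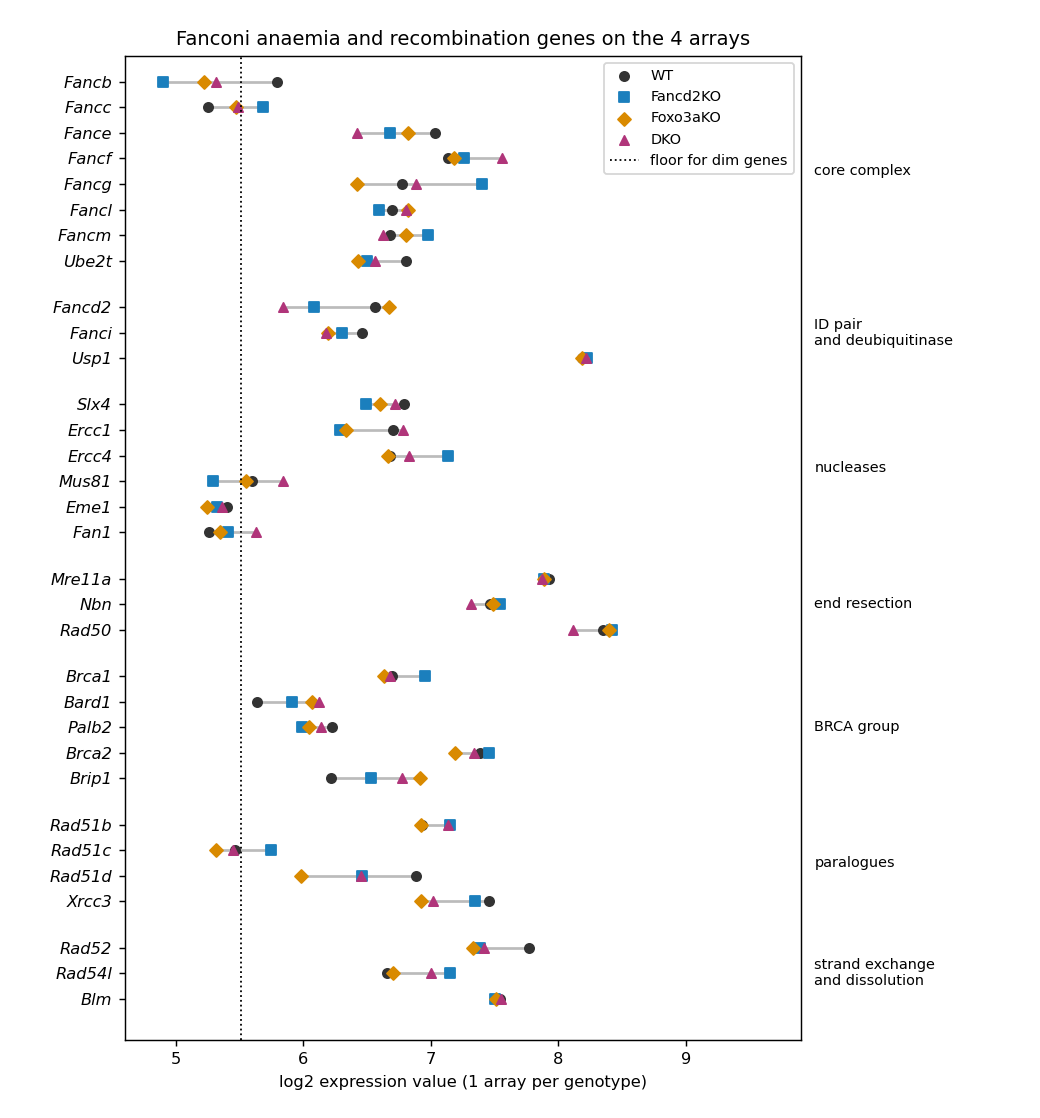
Log2 expression value (horizontal axis) of each of the 32 measured members on the 4 arrays, 1 point per array, grouped by role, with a grey line from the lowest to the highest array and the floor for dim genes (5.51 log2) dotted. Fancg, Rad51d, Fancb and Fancd2 have the widest lines, from 0.83 to 0.98 log2, and Usp1, Blm and Mre11a the narrowest, from 0.04 to 0.06.

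The targeted gene of the pathway, Fancd2 (probe set 17461739), read 6.56 log2 on WT, 6.08 on Fancd2KO, 6.67 on Foxo3aKO and 5.84 on DKO. Both arrays labelled as lacking Fancd2 were below both arrays carrying it. The difference was -0.48 log2 against WT and -0.83 between DKO and Foxo3aKO, each within the disagreement of probe sets. The signal that remained lies beside a G and C rich background of 6.51 and 6.70 on those 2 arrays, and the sources used here give neither the exons under the probe set nor those deleted. Its direction goes with the labels, while its size does not show how much transcript was left. The other targeted gene, Foxo3 (probe set 17240529), read 6.62, 6.72, 6.64 and 6.51 log2 in the same order, a difference from WT of 0.02 in Foxo3aKO and -0.10 in DKO. Since the exons under this probe set are not known, it does not check the Foxo3a labels, and directions assigned to Foxo3a loss rest on those labels alone. Fanci, the partner of Fancd2 in the ubiquitinated pair, read 6.46, 6.30, 6.20 and 6.18 log2, highest on WT and at most 0.28 lower in a knockout. Usp1, which removes the ubiquitin from Fancd2, read 8.18, 8.22, 8.19 and 8.22 log2, the narrowest range of any member at 0.04.

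No member differed from WT by as much as 2-fold in any knockout. Among 12041 genes past the floor, 3.03% lay at least 2-fold apart from WT in Fancd2KO, 3.11% did so in Foxo3aKO and 3.09% in the DKO array, against 0 of 32 members in each. With a background of about 3.03%, a count of 0 in a list this short lies near what genes in general showed. At 1.5-fold, 2 of 32 members were apart from WT in each knockout, where 11.8% of all genes were in Fancd2KO, 13.5% in Foxo3aKO and 11.3% in DKO. In Fancd2KO they were Fancg, higher (as were 5.51% of genes), and Fancb, lower (6.29%). In Foxo3aKO they were Brip1, higher (5.85%), and Rad51d, lower (7.62%). In DKO, Fancd2 and Fance were lower (6.3%) and no member was higher (5.05%). The remaining 26 members stayed within 1.5-fold of WT in all 3 knockouts. The median difference of the 32 members was -0.0015 log2 in Fancd2KO, -0.04 in Foxo3aKO and -0.03 in DKO, beside -0.01, -0.04 and -0.03 for all genes. By direction alone, 16 of 32 members were higher than WT in Fancd2KO (48.1% of genes), 12 in Foxo3aKO (44.6%) and 14 in DKO (46.5%). The 12 became 7 with each array centred on its median and 15 with cyclic loess. All 3 knockouts lay above WT for 7 members (21.9%, against 21.5% of genes) and below it for 11 (34.4%, against 27.6%), the latter being Eme1, Fancb, Fance, Fanci, Mre11a, Palb2, Rad51d, Rad52, Slx4, Ube2t and Xrcc3. The 3 comparisons share the WT array, so an error of that array enters all of them.

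**Figure D2:**
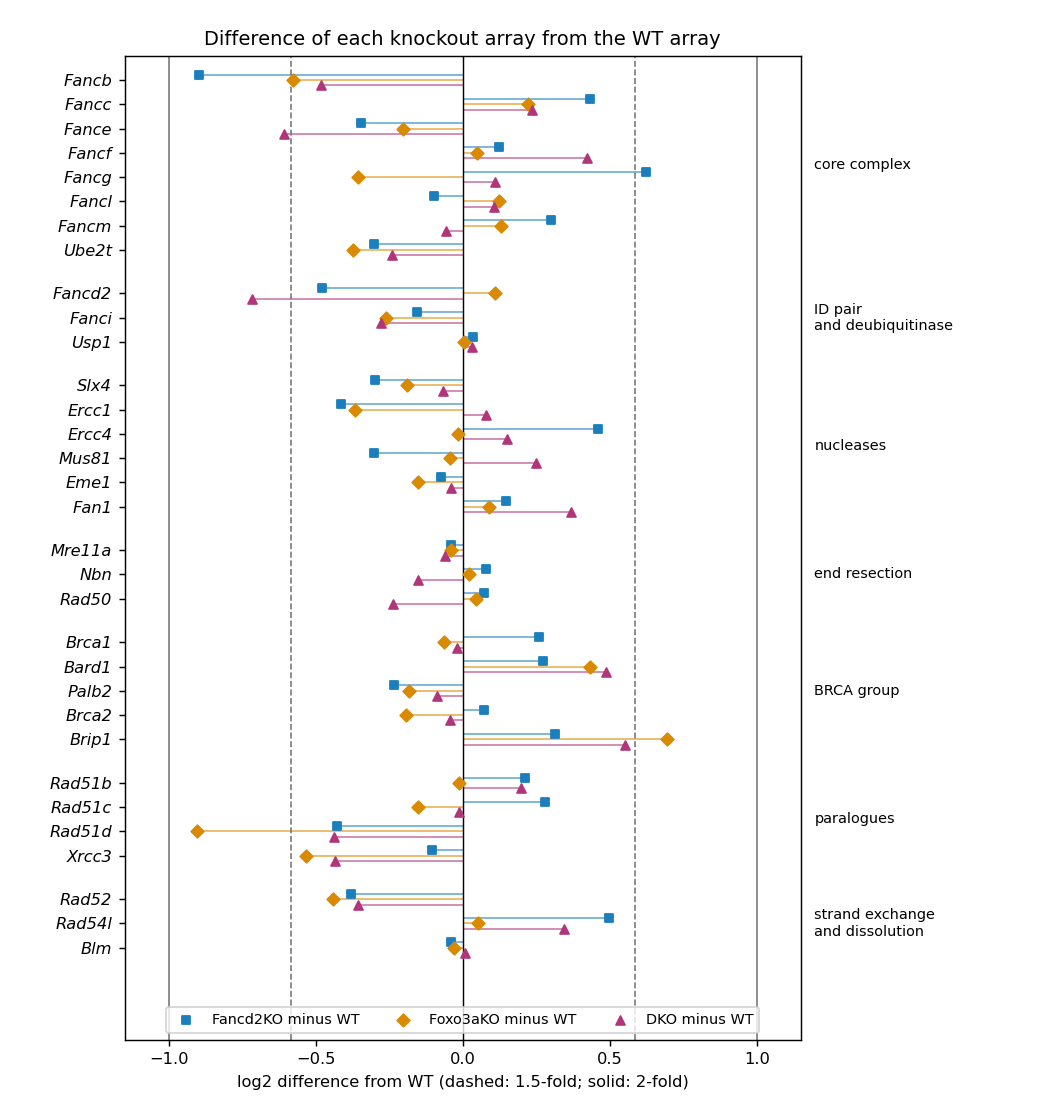
Log2 difference of each knockout array from the WT array (horizontal axis) for the 32 members, with dashed lines at 1.5-fold and solid lines at 2-fold. No point reaches a solid line, and 6 points pass a dashed one: Fancg and Fancb in Fancd2KO, Brip1 and Rad51d in Foxo3aKO, Fancd2 and Fance in DKO.

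The promoters of the members past 1.5-fold are shown because these are the genes that stood furthest from WT. RefSeq promoter sequences (GRCm38.p6, 250 bases before to 50 after a start) were found for 27 of the 32 measured members, and for 4 of these 6 genes, since Fancd2 and Rad51d were not matched. Printed 5′ to 3′ on the gene's strand are the 250 bases before the start of Fancb (chrX:164980342-164980591, plus strand), Fancg (chr4:43010302-43010551, minus strand), Fance (chr17:28313280-28313529, plus strand) and Brip1 (chr11:86201194-86201443, minus strand). Capitals mark matches to any motif searched.
Fancb: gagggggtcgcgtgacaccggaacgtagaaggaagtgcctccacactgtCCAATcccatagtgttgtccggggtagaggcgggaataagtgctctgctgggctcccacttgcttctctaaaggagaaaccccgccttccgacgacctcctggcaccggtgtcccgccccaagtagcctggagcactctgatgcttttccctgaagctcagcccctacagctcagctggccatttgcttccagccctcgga
Fancg: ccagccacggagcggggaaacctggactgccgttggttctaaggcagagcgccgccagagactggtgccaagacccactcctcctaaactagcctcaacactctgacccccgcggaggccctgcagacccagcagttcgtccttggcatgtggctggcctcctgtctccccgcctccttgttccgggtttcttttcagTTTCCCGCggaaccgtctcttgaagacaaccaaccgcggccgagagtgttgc
Fance: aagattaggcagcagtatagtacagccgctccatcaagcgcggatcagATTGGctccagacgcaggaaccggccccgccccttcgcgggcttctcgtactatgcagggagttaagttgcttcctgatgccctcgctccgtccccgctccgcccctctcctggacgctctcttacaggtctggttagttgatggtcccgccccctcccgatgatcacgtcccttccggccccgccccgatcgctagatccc
Brip1: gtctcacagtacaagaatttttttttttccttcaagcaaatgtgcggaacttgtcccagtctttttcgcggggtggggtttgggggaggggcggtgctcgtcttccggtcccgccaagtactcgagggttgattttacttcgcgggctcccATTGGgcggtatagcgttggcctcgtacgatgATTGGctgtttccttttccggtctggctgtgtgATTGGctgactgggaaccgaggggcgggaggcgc

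The motifs were searched on both strands of the whole 300-base window. For E2F factors, which drive genes of the G1 to S transition, the letters were TTTCCCGC, TTTGGCGC, TTTCGCGC and TTTGCCGC. They were found in 4 of 27 members (14.8%): Bard1, Brca2, Fancg and Rad51c, against 2.61% of 27025 genes with a promoter. In Fancg the match lay at -52 relative to the start. The CCAAT box, CCAAT or its complement, was in 16 of 27 members (59.3%) against 41.1% of genes, and Brip1 held 3 copies, at -99, -67 and -34 relative to its start. The cell cycle homology region, TTTGAA or TTCGAA, was in 3 of 27 members (11.1%) against 21.7% of genes. The forkhead letters GTAAACA were in 1 of 27 (3.70%), Brca2, against 4.05% of genes. None of these letter strings overlaps another in the printed windows. A match of letters describes the sequence and was not tied to any binding or to the expression values.

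Members of the core complex differed from WT in both directions. Fancg, a scaffold subunit that binds Fanca, read 6.78 log2 on WT, 7.40 on Fancd2KO, 6.42 on Foxo3aKO and 6.89 on DKO. It was highest on the Fancd2KO array and lowest on the Foxo3aKO array, and its range of 0.98 log2 was the widest of the 32 members, just inside 2-fold. Fancb, which works with the ligase subunit Fancl in the catalytic part of the complex, read 5.80, 4.90, 5.22 and 5.31 log2 in the same order. All 3 knockouts were below WT, with differences of -0.90 in Fancd2KO, -0.58 in Foxo3aKO and -0.48 in DKO, but these 3 values lay under the floor. With values under the floor raised to it, each of these differences shrank to -0.29. Fance, the subunit that contacts Fancd2, read 7.03, 6.68, 6.82 and 6.42 log2, with all knockouts below WT and DKO lowest, at -0.61.

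The remaining core genes stayed within 1.5-fold of WT. Fancf, an adaptor of the complex, was highest on DKO at 7.56 log2 and read 7.14 to 7.26 on the other arrays. Fancc, which binds Fance and Fancf, read 5.25 on WT and 5.68 on Fancd2KO, its single value above the floor. Fancl, the ubiquitin ligase subunit, ranged over 0.22 log2, and Fancm, the DNA translocase that anchors the complex to damaged forks, over 0.35. Ube2t was below WT in all 3 knockouts, by differences of -0.24 to -0.37. Of the 8 core genes measured, 4 were higher and 4 lower than WT in each of the 3 knockouts, so the group had no common direction.

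The nucleases that act after ubiquitination included the pair Ercc1 and Ercc4, whose proteins form a single heterodimeric enzyme. Ercc1 read 6.70 log2 on WT, 6.29 on Fancd2KO, 6.34 on Foxo3aKO and 6.78 on DKO, so both single knockouts were lower than WT and DKO was not. Ercc4 read 6.68, 7.14, 6.66 and 6.83 log2, with the Fancd2KO array highest and a DKO minus Fancd2KO difference of -0.31. The transcripts of the pair thus went opposite ways in Fancd2KO, with -0.41 for Ercc1 and 0.46 for Ercc4. Mus81, a nuclease that cuts stalled forks with Eme1, read 5.60, 5.29, 5.55 and 5.84 log2. Its partner Eme1 read 5.25 to 5.40 log2, under the floor on all arrays. Slx4, the scaffold that holds several of these nucleases, ranged from 6.49 to 6.79 log2, and Fan1, a nuclease recruited by the ubiquitinated pair, from 5.26 to 5.63.

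Mre11a, Rad50 and Nbn, which differed from WT by at most 0.24 log2, encode the complex that binds and trims DNA ends. Mre11a read 7.93, 7.89, 7.89 and 7.87 log2, a range of 0.06. Rad50 read 8.35, 8.42, 8.40 and 8.11 log2, and Nbn 7.46, 7.54, 7.49 and 7.31. For both genes DKO was the lowest array, with differences from WT of -0.24 and -0.15, smaller than the disagreement of probe sets.

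In the Brca group, Brip1, a helicase that binds Brca1, read 6.22 log2 on WT, 6.53 on Fancd2KO, 6.91 on Foxo3aKO and 6.77 on DKO. All 3 knockouts were above WT and both arrays lacking Foxo3a were above both carrying it. Bard1, the obligate partner of Brca1, had the same order of WT below Fancd2KO below the other 2 arrays, at 5.64, 5.91, 6.07 and 6.12 log2. Brca1 itself read 6.70, 6.96, 6.63 and 6.68 log2, with the Fancd2KO array highest. Brca2, a mediator of homologous recombination, ranged over 0.26 log2, and Palb2, which links Brca1 to Brca2, over 0.23. Bard1 and Brip1 were thus higher than WT in Foxo3aKO, by 0.43 and 0.69, where Brca1 differed by -0.06.

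The paralogues Rad51b, Rad51c, Rad51d and Xrcc3 assist homologous recombination. Rad51d read 6.89 log2 on WT, 6.46 on Fancd2KO, 5.98 on Foxo3aKO and 6.45 on DKO. Every knockout was below WT, and the Foxo3aKO array was lowest, at -0.90, the widest difference of any member in that comparison. Xrcc3 read 7.45, 7.35, 6.92 and 7.02 log2, with both arrays lacking Foxo3a below both carrying it. Rad51b ranged from 6.92 to 7.15 log2 and Rad51c from 5.31 to 5.74. All 4 measured paralogues were lower than WT in Foxo3aKO, where 44.6% of genes were higher, although Rad51b differed by only -0.01, and with cyclic loess 1 of the 4 was higher. All 4 were higher in DKO than in Foxo3aKO, where 54% of genes were, and 3 of 4 with values raised to the floor. Both counts rest on the same Foxo3aKO array, on which background probes rich in G and C had their lowest median. The part of that background was not tested. Rad52, which anneals single strands, read 7.77, 7.39, 7.33 and 7.41 log2, with WT highest. Rad54l, the motor protein of strand exchange, read 6.65 log2 on WT, 7.15 on Fancd2KO and 6.70 on Foxo3aKO, and DKO was 0.34 above WT. Both arrays lacking Fancd2 were thus above both carrying it. Blm, a helicase that dissolves joined recombination intermediates, read 7.50 to 7.55 log2.

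The effect of losing Fancd2 could be read on separate pairs of arrays, as Fancd2KO minus WT and as DKO minus Foxo3aKO, and that of losing Foxo3a as Foxo3aKO minus WT and DKO minus Fancd2KO. For Fancd2 loss, 17 of 32 members (53.1%) had the same direction on both backgrounds, where 48.8% of all genes did. The Pearson correlation of the paired differences over the 32 members was 0.16, and 0.01 without Fancd2 itself; over all genes it was -0.06. For Foxo3a loss, 16 of 32 members had the same direction, against 50.8% of genes, and the correlation was 0.04 over the members and -0.06 over all genes. All members are read from the same 4 arrays, and genes are not independent of each other. Over the list, the difference on 1 pair of arrays thus said little about that on the other pair. In DKO minus Foxo3aKO, 23 of 32 members were higher (71.9%, against 54% of genes), with a median of 0.10 log2 beside 0.03 for all genes. All 6 nucleases were among them, at 0.11 to 0.44, and 5 of them with values raised to the floor. The 23 became 19 with values raised to the floor and 26 with quantile normalisation. The G and C rich background was also higher on DKO, 6.70 against 6.06 log2, and its part in this shift was not tested. Background probe sets with a middling count of G or C bases read 2.74 on DKO against 2.58 on Foxo3aKO. Of 45 further genes of the pathway, 20 were higher in the same comparison and 25 lower, with a median of -0.06 log2. Higher were also 29 of 45 genes of damage checkpoints, end joining and excision repair (median 0.12). For DNA replication genes the count was 27 of 44 (0.06), and for mitosis genes 18 of 42 (-0.03). In that comparison Fancd2, lower, was the 1 member at least 1.5-fold apart, where 12.3% of genes were (5.83% higher and 6.52% lower), and 0 of 32 members were at least 2-fold apart, where 3.36% of genes were. In DKO minus Fancd2KO, no member was 1.5-fold apart, where 11.4% of genes were, or 2-fold apart, where 3.01% were, and 14 of 32 were higher (47.4% of genes).

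**Figure D3:**
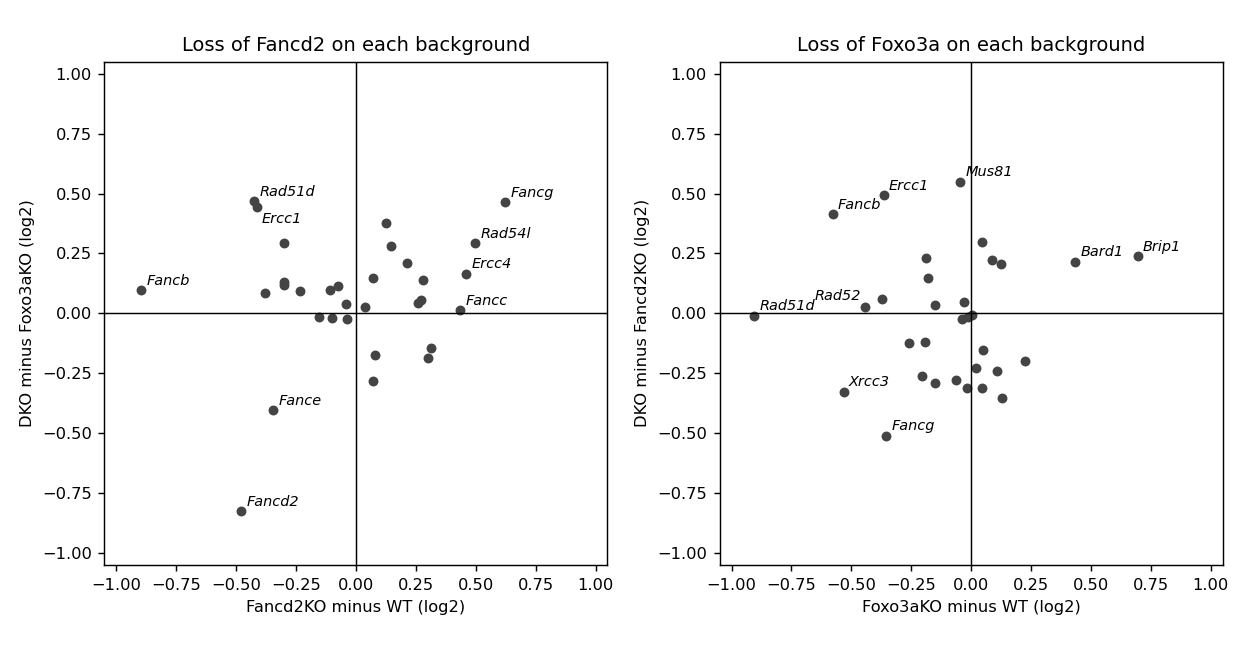
Each point is 1 of the 32 members. Left, the log2 difference with Fancd2 loss on the wild-type background (horizontal) against that on the Foxo3a knockout background (vertical); right, the same for Foxo3a loss, with names where a difference is at least 0.40. Fancd2 lies low on both axes at left, and Rad51d and Ercc1 differ in sign between backgrounds at left. At right, Brip1 and Bard1 lie highest on the horizontal axis. On the vertical axis they are positive, at 0.24 and 0.22, below Mus81 at 0.55.

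With 2 arrays on each side, 10 members did not overlap between arrays lacking and carrying Fancd2. Below were Fancd2 and Fance (2 of 32, where 15.1% of genes were), and above were Ercc4, Fan1, Fancc, Fancf, Fancg, Rad51b, Rad54l and Usp1 (8 of 32, where 16.3% of genes were). Fan1 and Fancc lay under the floor on all but 1 array and left this list when values were raised to the floor. For Foxo3a, Bard1, Brip1 and Fancl were above (3 of 32, where 13.9% of genes were) and Brca1, Brca2, Fanci, Mre11a, Rad51c, Rad51d and Xrcc3 below (7 of 32, 21.9%, where 21.2% of genes were). The count below was 11 with each array centred on its median and 5 with quantile normalisation. Mre11a read 7.88906 on Foxo3aKO and 7.88913 on Fancd2KO, and was not below with quantile normalisation or cyclic loess. Brca2 was not below with quantile normalisation, nor Rad51c with values raised to the floor. Both losses were tested, in an additive limma fit with 1 residual degree of freedom in which the departure of DKO from additivity is the error. At a Benjamini-Hochberg adjusted p under 0.05, limma called 0% of the 12041 genes and 0 of the 31 members tested for either loss, while 487 genes (4.04%) had an unadjusted p under 0.05 for Fancd2 loss and 504 (4.19%) for Foxo3a loss. The 2 members among the 487 were Fancd2, with an effect of -0.65 log2 (SE 0.20, limma adjusted p = 0.999), and Fancg, with 0.54 log2 (SE 0.19, limma adjusted p = 0.999). No member was among the 504. Even the targeted gene did not pass, so a miss in this fit does not show that a level was the same.

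The departure of DKO from the sum of both single differences was at least 2-fold in 0 of 32 members, where 8.42% of genes reached it, and at least 1.5-fold in 4 of 32 (12.5%), where 24.9% did. These 4 were Fancb (0.99), Rad51d (0.89), Ercc1 (0.86) and Mus81 (0.59 log2). In each, DKO stood higher than the sum of the single knockouts. For Fancb and Mus81 some of the values lay under the floor, and with values raised to it their departures were 0.29 and 0.38, which leaves 2 of 32 members. Fancb passed 2-fold with quantile normalisation, at 1.003, and also with each array centred on its median. For Ercc1, all values lay above the floor: both single knockouts were below WT, by differences of -0.41 and -0.37, and DKO was 0.08 above it. With 1 array per genotype this quantity carries the error of all 4 arrays.

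Over the 4 arrays, Fancg had the widest range of the members and Usp1 the narrowest. The highest minus the lowest array was under 1.5-fold for 26 of 32 members (81.3%) and for 66.8% of 12041 genes past the floor, or 65.9% of the 9251 of these with a mean level in the span of the members. No member was 2-fold apart between any 2 arrays, where 9.22% of genes were. The median range was 0.40 log2 for members and 0.46 for all genes, and the difference between members and other genes was not tested. In related lists, a range under 1.5-fold was found for 37 of 44 DNA replication genes, 40 of 42 mitosis genes and 34 of 45 genes of damage checkpoints, end joining and excision repair. In the last list 1 gene was at least 2-fold apart, the histone gene H2ax, which marks sites of breaks and read 11.19, 10.38, 10.06 and 11.02 log2. Replication and mitosis genes are given because many recombination genes are transcribed in cycling cells. The replication list had a median of 0.10 log2 in Fancd2KO, -0.12 in Foxo3aKO and -0.10 in DKO, and the mitosis list -0.03, 0.03 and -0.06, beside -0.0015, -0.04 and -0.03 for the members.

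**Figure D4:**
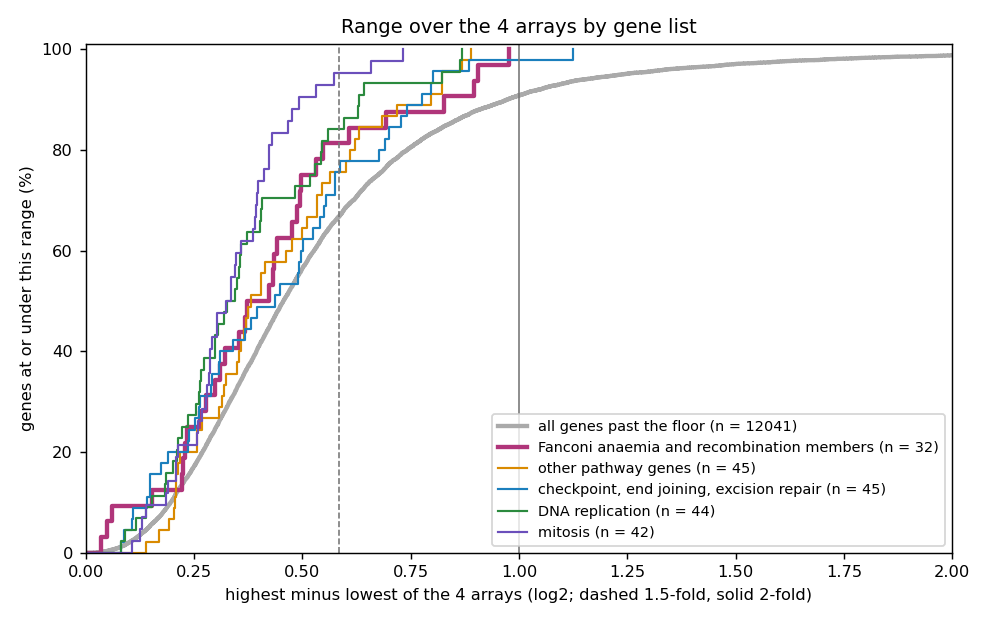
Cumulative percentage of genes (vertical axis) whose range over the 4 arrays, in log2 (horizontal axis, drawn to 2), is at or under a given value, for the 32 members, 4 related lists and 12041 genes past the floor. The curve of the members ends before the solid 2-fold line, at 0.98 log2, while 9.22% of all genes lie beyond it.

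Of 50 further genes of the pathway, 45 were measured, and 0 differed from WT by 2-fold in any knockout. Their median differences were -0.01 log2 in Fancd2KO, -0.12 in Foxo3aKO and -0.07 in DKO, and limma called 0 of them in either direction for either loss. The 4 with the widest range were Sfr1, Mad2l2, Cenpx and Rpa2. Sfr1, an accessory factor of recombination, read 10.16, 10.50, 10.11 and 9.61 log2. Mad2l2, a subunit of a translesion polymerase, read 8.07, 8.13, 7.63 and 8.50, and Cenpx, a partner of Fancm, 8.03, 7.68, 7.77 and 8.51, each highest on DKO. Rpa2, of the single-strand binding complex, read 7.31, 8.13, 7.68 and 7.79 log2, with WT lowest and Fancd2KO highest.

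Marker lists of other blood cells differed between the same arrays to unequal extents. Of 14 monocyte markers, 9 were at least 2-fold higher than WT in DKO (list median 1.16 log2), against a member median of -0.03. Another 4 were lower in DKO, 1 of them at least 2-fold. In Foxo3aKO 13 of the 14 were higher than WT, 4 of them at least 2-fold, while in Fancd2KO 11 were lower and 3 higher. Of 12041 genes past the floor, 165 were at least 2-fold higher in DKO and 218 in Foxo3aKO. The level of the monocyte markers summed on the linear scale, after undoing the log2, was 5663 on WT, 4484 on Fancd2KO, 7643 on Foxo3aKO and 7401 on DKO. Most of that sum on WT was Lyz2, and without it the sums were 1530, 1223, 2567 and 3914. Of 14 mast cell, basophil and eosinophil markers, 6 were at least 2-fold lower in Fancd2KO and 7 in DKO, with summed levels of 9079, 3295, 6197 and 2768. Of the 12041 genes, 163 were at least 2-fold lower in Fancd2KO and 207 in DKO. In Foxo3aKO the list split, with 9 markers lower, 4 of them at least 2-fold, and 5 higher, 1 of them at least 2-fold. Only 10 of the 14 reached the floor on any array. Of 17 neutrophil markers, 16 were higher than WT in Foxo3aKO (median 0.46 log2), with summed levels of 43810, 37204, 55066 and 37726. Of the same markers, 13 were lower and 4 higher in Fancd2KO, and 11 lower and 6 higher in DKO. Of 8 progenitor markers, all were lower than WT in both single knockouts and 7 in DKO (medians -0.77, -0.89 and -1.30 log2), with summed levels of 10187, 4687, 2758 and 4187. Most of the sum on WT was Ighm, and without it the sums were 3377, 2023, 1666 and 2077. In DKO, 3 other lists had small median differences from WT: -0.16 log2 (10 erythroid), -0.15 (9 megakaryocyte) and 0.02 (12 T and NK cell markers). The 11 B cell markers had -0.64 there. The erythroid list was further from WT in the single knockouts. All 10 markers were lower in Fancd2KO (median -0.58 log2), and 8 were lower and 2 higher in Foxo3aKO (-0.49). The megakaryocyte median hid wide single differences. In Fancd2KO 2 of its markers were at least 2-fold higher and 2 at least 2-fold lower. In Foxo3aKO 2 were at least 2-fold lower, and in DKO 1 was higher and 1 lower by that much. Only 8 of the 9 megakaryocyte markers reached the floor on any array. The marker that did not was 1 of the 2 lower ones in both single knockouts. Of the 12 T and NK cell markers, 8 were higher than WT in Foxo3aKO, 2 of them at least 2-fold, and 4 were lower. In Fancd2KO 9 were higher and 3 lower, with 1 at least 2-fold apart each way. The summed levels of these 12 markers were 1436, 1651, 2012 and 1432, and only 9 of them reached the floor on any array. The summed level of the 32 members was 3892, 3914, 3653 and 3755 on the same arrays. The part of such cells in the differences of single members was not tested.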

How the data were processed

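RNA was measured on 4 arrays, 1 per genotype, and groups were taken from the labels' genotype field. Values are log2 expression values made by the authors and deposited as 1 table of 41345 probe sets; the log2 scale was read from their range. The submitters' processing notes name Affymetrix Expression Console, and the sources used here do not give its version, summarisation, normalisation or filters. The values were used as deposited. Gene names came from the platform's annotation: 23521 had 1 gene symbol, 1814 several and 16010 no listed gene, and only the first kind was used. Of these, 23328 had an Entrez identifier found in the RefSeq table of GRCm38.p6, and 0 symbols differed.

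Differences were taken on the log2 scale and called at 2-fold (1 log2) or 1.5-fold. Among 12041 genes with a highest value of at least 5.51 log2, both losses were fitted additively with limma 3.58.1 in R 4.3.3 (lmFit and eBayes, two-sided, Benjamini-Hochberg adjustment), a script tested on simulated data. All measured members are counted whether or not they reached that floor. Every measured member was named, together with the targeted genes, the 4 further pathway genes with the widest range, and at most 3 genes of any other list, while Kit and Lyz2 were named after their values were seen. The members, gene lists and thresholds were chosen with earlier results of these data known. The number of arrays limits the precision. Alternatives were quantile normalisation, median centring, cyclic loess, the mean of all probe sets, no filter, values raised to the floor, a 1.5-fold threshold, an intensity trend in eBayes and leaving out each array.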

Additional observations from a re-analysis of the deposited data

How the results depend on the processing

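Counts of members at least 2-fold apart stayed at 0 in all 5 comparisons of arrays under quantile normalisation, median centring and cyclic loess. The mean of all probe sets and no filter could not change these counts, since each member had 1 probe set and all were counted. Values raised to the floor could not raise them either, since that can only shrink a difference between 2 arrays. At a 1.5-fold threshold the counts were 1 higher and 1 lower for Fancd2KO minus WT, 1 higher and 1 lower for Foxo3aKO minus WT, 2 lower for DKO minus WT and 1 lower for DKO minus Foxo3aKO, since that threshold is wider. Under the other settings Fancg, Brip1, Rad51d, Fancd2 and Fance remained past 1.5-fold in the comparisons named above. Fancb in Fancd2KO left it when values were raised to the floor, at -0.29. Fancb in Foxo3aKO passed 1.5-fold under quantile normalisation, median centring and cyclic loess, from -0.61 to -0.64, and Xrcc3 in Foxo3aKO under median centring, at -0.59. The 4 members whose departure from additivity was at least 1.5-fold became 2 with values raised to the floor and 3 with cyclic loess, alternatives chosen after seeing the data. The limma fit called 0 genes under every setting run. Leaving out 1 array in turn leaves a loss on 1 background, a value with no test. The member median for Fancd2 loss then ran from -0.0015 to 0.095 log2, and that for Foxo3a loss from -0.042 to -0.013. The higher value for Fancd2 loss arose without the WT or the Fancd2KO array, which leaves DKO minus Foxo3aKO. Low signal limits Eme1, Fancb, Fancc, Fan1 and Rad51c most, since they reached the floor on 1 array or on none. No paired analysis was possible because each genotype had 1 array.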
